A study of Mus musculus with 8 samples.

Results

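Septins are GTP-binding cytoskeletal proteins, and the genes described here are a set of mouse septins together with Anln, which encodes the scaffold protein anillin. Of 10 genes named by the rule (Septin2 to Septin9, Septin11 and Anln), 9 had a transcript cluster with exactly 1 gene symbol, out of 19938 genes measured in that way. Septin5 had no such cluster and was not analysed here. Each of the 9 genes had 1 such cluster, so no choice among clusters was needed.

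Septins assemble into rods and filaments that lie beneath membranes. Rods are built from subunits of the SEPT2, SEPT6 and SEPT7 groups of the family, longer ones also from the SEPT3 group, and a member can stand in for another of its own group. Anillin binds septins, actin and myosin, and is best known from the contractile ring of dividing cells. In central nervous system myelin, filaments of SEPT2, SEPT4, SEPT7 and SEPT8, whose assembly anillin supports, lie in the innermost layer of the sheath, and are known to help keep the sheath from folding outward.

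The tissue was corpus callosum, the white matter tract that joins the hemispheres, from male wild-type C57BL/6 mice aged 8 weeks. The control group was 4 mice on normal diet, and the treated group was 4 mice fed cuprizone, a copper chelator toxic to oligodendrocytes, at 0.25% of the diet for 1 week. The labels call the samples biological replicates and record no pooling, and each RNA (150 ng) was hybridised to its own Affymetrix Mouse Gene 1.0 ST array, which reads the whole transcript. Levels below are log2 values, in which a step of 1 is a doubling, and their errors are SDs over 4 arrays.

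Array medians over the tested clusters lay between 7.44 and 7.49, and r between arrays within a group was 0.9952 to 0.9971. The tissue label was checked on marker genes. The myelin genes Mbp and Mog stood at 12.25 and 11.14 in the control group. The control means of 20 neuronal genes ran from 8.67 for Tubb3 to 12.82 for Snap25, so the samples also held neuronal RNA. All 32 measured genes of a mature oligodendrocyte list were lower with cuprizone, whereas none of 20 neuronal genes was called in limma, 2 of them passed an unadjusted p of 0.05, and an ordinary F test without moderation called 1. The callosum is a mixture of cells, so fewer cells of a type and less RNA per cell cannot be told apart in any value below.

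With cuprizone 3 of the 9 genes changed, and not in the same direction. Anln fell 3.49-fold and Septin4 fell 2.69-fold, whereas Septin2 rose 1.26-fold. The other 6, which include the myelin filament subunits Septin7 and Septin8, did not pass the test. These calls used a limma adjusted p under 0.05 over 23410 clusters, of which 8.22% were called in either direction, 3.52% lower and 4.71% higher. The median log2 fold change was -0.12 over the 9 genes and -0.0074 over all clusters tested.

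Promoter sequence is shown for the 3 genes that changed, because Anln and Septin4 moved in the opposite direction to Septin2. The windows are RefSeq's (GRCm38.p6), and 7 of the 10 genes had an entry. Each line gives the 250 bases before the annotated gene start, 5′ to 3′ on the gene's strand. Capitals mark the SOX core ACAAT or the GC box GGGCGG on either strand. For Septin4, which has several annotated starts, the farthest upstream and the farthest downstream are printed. For Septin2, which has 2 windows, the upstream one is printed.
Anln promoter, chr9:22389207-22389456, minus strand: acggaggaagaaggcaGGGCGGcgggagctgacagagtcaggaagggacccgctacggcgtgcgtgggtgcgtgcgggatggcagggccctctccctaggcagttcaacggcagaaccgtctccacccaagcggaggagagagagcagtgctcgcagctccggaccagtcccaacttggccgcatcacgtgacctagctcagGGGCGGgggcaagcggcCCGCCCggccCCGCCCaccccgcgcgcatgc
Septin4 upstream promoter, chr11:87566439-87566688, plus strand: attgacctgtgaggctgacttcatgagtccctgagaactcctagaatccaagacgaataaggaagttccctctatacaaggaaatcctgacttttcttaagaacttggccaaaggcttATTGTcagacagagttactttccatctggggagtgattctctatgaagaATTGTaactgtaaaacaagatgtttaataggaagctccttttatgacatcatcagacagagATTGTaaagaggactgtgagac
Septin4 downstream promoter, chr11:87580811-87581060, plus strand: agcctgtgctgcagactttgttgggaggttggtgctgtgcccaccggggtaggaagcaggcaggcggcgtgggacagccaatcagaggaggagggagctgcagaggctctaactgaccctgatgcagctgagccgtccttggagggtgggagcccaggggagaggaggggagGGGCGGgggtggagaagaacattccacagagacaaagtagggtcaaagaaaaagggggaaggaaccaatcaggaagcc
Septin2 promoter, chr1:93478743-93478992, plus strand: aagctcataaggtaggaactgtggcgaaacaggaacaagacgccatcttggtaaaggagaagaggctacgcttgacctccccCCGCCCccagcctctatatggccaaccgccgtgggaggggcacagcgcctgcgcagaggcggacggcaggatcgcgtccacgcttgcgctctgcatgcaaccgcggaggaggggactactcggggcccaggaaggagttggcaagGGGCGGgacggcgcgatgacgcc

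Just inside the Anln transcript lie a pair of copies of TTTGAA, the core of the cell cycle genes homology region, on opposite strands, at positions 22 and 29 from the gene start. They are printed in capitals in the following 30 bases.
Anln start, chr9:22389165-22389194, minus strand: gcgctgaaaTTCAAAtTTTGAAcggccgtg

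The windows differed in the motifs searched, which were TTTGAA, the SOX core ACAAT, the letters CTGGCAC (or CTGGTAC in their place) known for the myelin regulator MYRF, the GC box GGGCGG and the TATA box TATAAA, each on both strands and over the full 300 bases. The upstream Septin4 window held ACAAT 3 times and no GC box, with a GC content of 42.3%. The other Septin4 windows held no ACAAT but the GC box 2, 2 and 1 times, at 57.3%, 59.7% and 59%. Which start is used in this tissue was not tested. ACAAT was found in none of the other 15 windows of these genes, and in 31% of all 32851 promoter windows of this length. The Anln window held the GC box 4 times, at a GC content of 67.7%. The printed Septin2 window held it 3 times over its full 300 bases, at 65.7%. Its match at position 23 lies after the gene start, outside the printed bases. TTTGAA was not particular to Anln, since 3 of the 15 other windows also held it, both of Septin7 and that of Septin11, genes that were not called. The GC box was present in 35.7% and TTTGAA in 17.9% of all windows. No printed promoter held TATAAA (13.6% of all windows) or the MYRF letters (7.1%). Such matches describe letters only.

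Of the SEPT2 group, Septin4 and Septin2 changed in opposite directions. Septin4 (transcript cluster 10380067) encodes a subunit of the myelin filament and, from a splice form, the apoptosis-related protein ARTS. Its levels were 10.46, 10.19, 10.52 and 10.37 on the control arrays 1 to 4, and 8.80, 9.03, 9.17 and 8.83 on the cuprizone arrays 1 to 4. The groups were more than a unit apart, and within the controls replicate 2 was the lowest. The mean fell from 10.39 ± 0.15 to 8.96 ± 0.17, a difference of -1.43 ± 0.10 in log2 units (SE, limma, adjusted p = 8.97e-06). Among all clusters tested, 34 fell further.

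Septin2 (transcript cluster 10348817) encodes a broadly expressed core subunit that also binds myosin II. It stood at 10.29, 10.28, 10.24 and 10.25 on the control arrays and at 10.55, 10.51, 10.67 and 10.67 on the cuprizone arrays. The controls lay within a narrow band and all 4 cuprizone arrays lay above it. The mean rose from 10.26 ± 0.03 to 10.60 ± 0.08, a log2 fold change of 0.34 ± 0.06 (SE, 95% interval 0.21 to 0.46, limma adjusted p = 0.00358). The increase was small, and 811 clusters rose further. Against a null of a 1.2-fold change it was not called (limma treat, adjusted p = 1), and across the alternatives run its adjusted p lay between 0.000943 and 1.

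Anln (transcript cluster 10591781), the anillin gene, changed most. Control arrays read 9.05, 9.003, 9.08 and 9.16, and cuprizone arrays read 6.80, 7.66, 7.43 and 7.19. The cuprizone arrays were all lower and were also more spread, with an SD of 0.37 against 0.07 in the controls. The mean fell from 9.07 ± 0.07 to 7.27 ± 0.37, a difference of -1.80 ± 0.15 in log2 units (SE, limma, adjusted p = 2.83e-05). Among all clusters tested, 16 fell further.

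**Figure D1:**
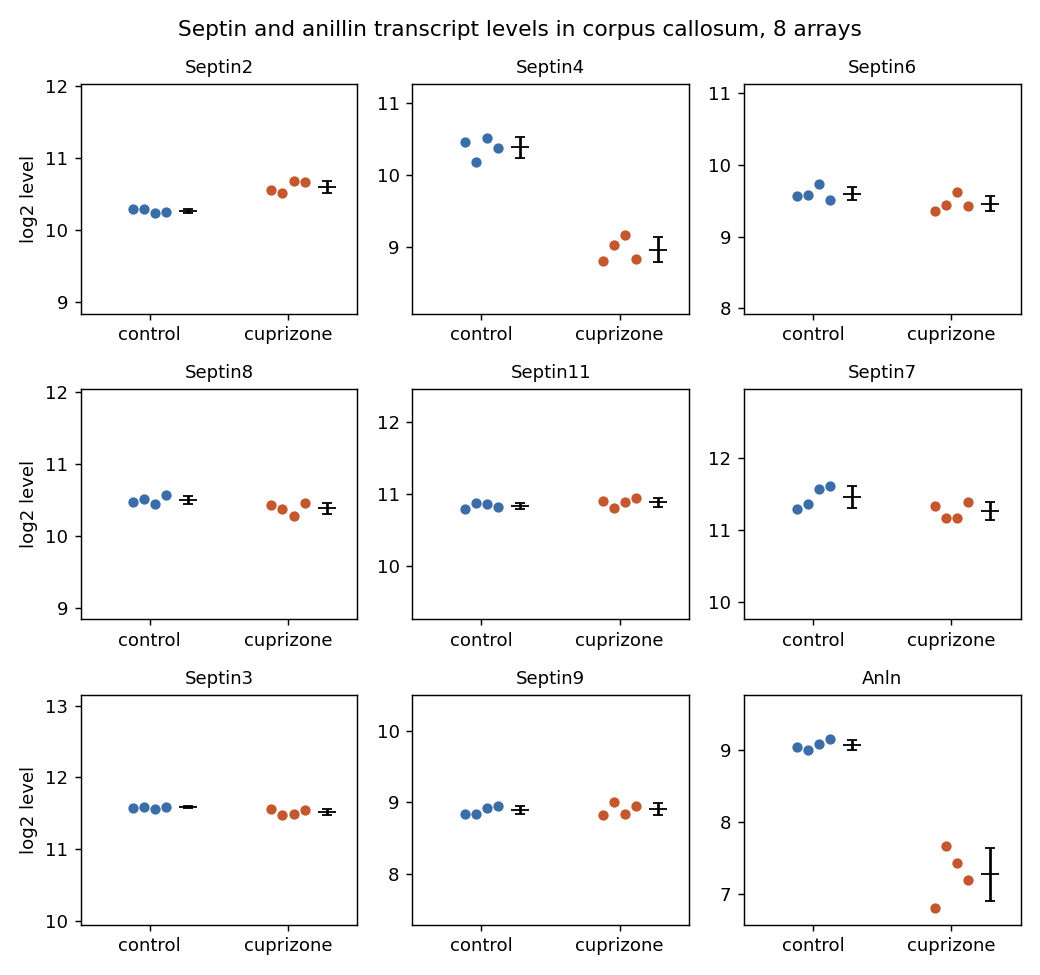
Log2 level of each gene on each array (points, control blue and cuprizone orange), with the group mean and SD over 4 arrays (black); every panel spans the same range of log2 units. Septin4 and Anln lie lower on all 4 cuprizone arrays and Septin2 lies higher, while Septin6, Septin7, Septin8, Septin9 and Septin11 overlap.

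Septin7, the sole member of its group, did not pass the test. Its transcript (cluster 10583905) read 11.29, 11.36, 11.56 and 11.61 on the control arrays and 11.34, 11.16, 11.16 and 11.39 on the cuprizone arrays. The groups overlapped, and replicates within a group differed by up to 0.32. The log2 fold change was -0.19 ± 0.09 (SE, 95% interval -0.38 to -0.0020), with a limma adjusted p of 0.234.

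In the SEPT6 group none of the 3 genes was called in limma or by an ordinary F test, and none passed an unadjusted p of 0.05. Septin8 (transcript cluster 10376021), the group's subunit in myelin filaments, read 10.47, 10.50, 10.44 and 10.57 in controls and 10.43, 10.37, 10.28 and 10.45 with cuprizone. The ranges overlapped by 1 cuprizone array, and the log2 fold change was -0.12 ± 0.06 (SE, 95% interval -0.24 to 0.014, limma adjusted p = 0.302). Septin6 went from 9.60 ± 0.09 to 9.46 ± 0.11, at -0.14 ± 0.07 (limma adjusted p = 0.310). Septin11, also found at dendritic spines of neurons, stood at 10.83 ± 0.04 and 10.88 ± 0.06, at 0.05 ± 0.05 (limma adjusted p = 0.715). The 95% intervals of all 3 lay between -0.29 and 0.16, and so did not reach the change of Septin4 or Anln.

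In the SEPT3 group Septin3, a septin of neurons and their presynaptic terminals, had little spread. Control arrays read 11.57, 11.60, 11.57 and 11.59, and cuprizone arrays 11.56, 11.48, 11.49 and 11.55. The ranges of the groups did not meet, but the gap between the lowest control and the highest cuprizone array was smaller than the SD of either group, and the log2 fold change of -0.06 ± 0.05 was not called (limma adjusted p = 0.565). Counting Septin3, 4 of the 9 genes had groups without overlap, as had 15.3% of all clusters tested. Septin9, a broadly expressed member of this group, read 8.89 ± 0.06 and 8.91 ± 0.08, at 0.02 ± 0.06 (limma adjusted p = 0.926). The neuron list had a median log2 fold change of -0.04.

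The 4 further septin genes outside the rule, Septin1, Septin10, Septin12 and Septin14, were not called in limma. None of them passed an unadjusted p of 0.05, and an ordinary F test called 0. Their log2 fold changes ran from -0.12 for Septin14 to 0.03 for Septin1, and in each of them the groups overlapped. Control means were 6.83 for Septin1, 6.92 for Septin10, 5.24 for Septin12 and 5.10 for Septin14, and without detection calls it is not known which of these is above background.

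**Figure D2:**
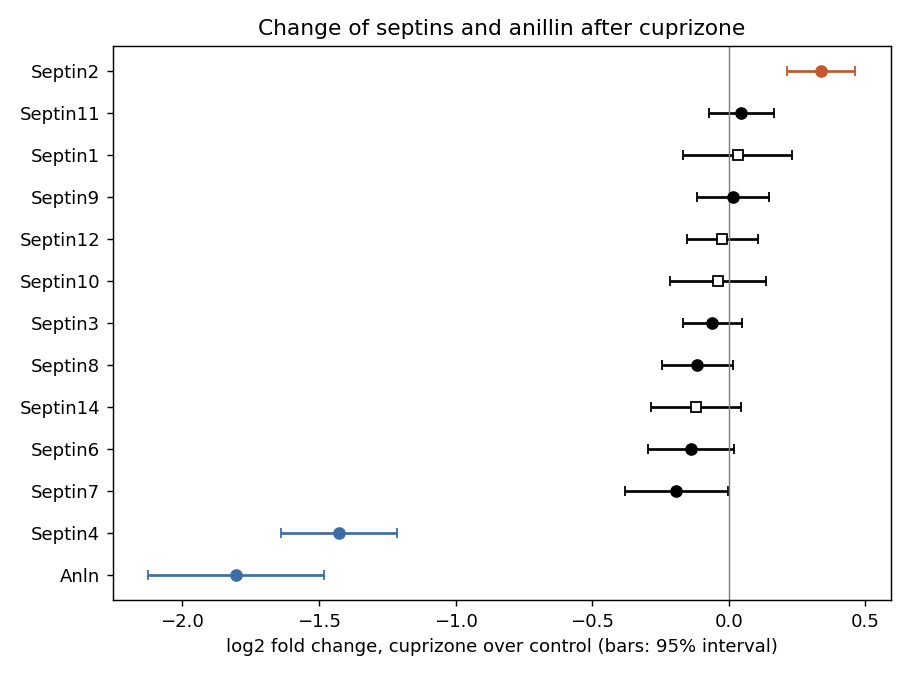
Log2 fold change (cuprizone over control, 4 arrays each) with its 95% interval for the 9 genes (filled circles) and the 4 further septins (open squares); blue is lower, orange higher and black not called at a limma adjusted p of 0.05. Anln at -1.80 and Septin4 at -1.43 stand apart from the 10 uncalled septins, which lie between -0.19 and 0.05, and Septin2 lies at 0.34.

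Whether the transcripts of the myelin filament genes changed by unequal amounts was asked within each array. The measure was the difference in log2 level between each pair of Septin2, Septin4, Septin7, Septin8 and Anln. These are transcript levels of a mixed tissue and do not show how the filament itself changed. In 8 of 10 pairs the difference between diets had an adjusted p of 0.0357, by exact permutation of the arrays, two-sided, with 70 possible assignments (p = 0.0286 each, the smallest possible) and adjustment over the 10 pairs. Septin4 fell by 1.31 ± 0.15 more than Septin8 and by 1.23 ± 0.17 more than Septin7 on the log2 scale (SE, n = 4 arrays a group, exact permutation). Septin2 moved apart from Septin4 by 1.76 ± 0.12, from Septin7 by 0.53 ± 0.11 and from Septin8 by 0.45 ± 0.07. Anln moved apart from Septin2 by 2.14 ± 0.20, from Septin8 by 1.69 ± 0.21 and from Septin7 by 1.61 ± 0.24. Septin4 and Anln were far lower without overlap between the groups, so their pairs with Septin2, Septin7 and Septin8 were bound to separate. For those pairs the test adds nothing to the limma result. The adjusted p of Septin2 against Septin7 and Septin8 also depends on how many other pairs reached the smallest p.

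The remaining pairs did not pass. Septin8 and Septin7 differed by 0.08 ± 0.08 (exact permutation, adjusted p = 0.400). Anln had fallen by 0.38 ± 0.15 more than Septin4 (exact permutation, adjusted p = 0.0952), and this pair passed without cuprizone replicate 2 (0.48, adjusted p = 0.0317). In order of fold change the 5 genes therefore ran Septin2, Septin8, Septin7, Septin4, Anln, with Septin8 and Septin7, and Septin4 and Anln, as the neighbours whose changes did not differ past the threshold.

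Each gene was next set against the mean of the 32 mature oligodendrocyte genes of the same array, a list that holds none of the septins. This list had a median log2 fold change of -1.59, and its genes with the smallest p were the protease gene Klk6 (-1.86), the fatty acid hydroxylase gene Fa2h (-2.60) and Mog (-3.78). Anln fell 0.09 ± 0.07 further than the list mean (exact two-sided permutation, adjusted p = 0.314 over 9 genes). Against the median level of the list in place of its mean the direction turned, and Anln fell less, by 0.40 (exact permutation, adjusted p = 0.0286). The gene at the median level can differ between arrays, so this does not compare Anln with the fold of a typical list gene. Set against the median log2 fold change of the list, -1.59, Anln at -1.80 fell further. Of the 32 genes, 14 fell further than Anln and 18 fell further than Septin4.

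Septin4 fell 0.29 ± 0.09 less than the list mean, which did not pass (exact permutation, adjusted p = 0.0643). By the same test it did pass without cuprizone replicate 2 (0.36, adjusted p = 0.0321). It also passed against the median level of the list (0.77, adjusted p = 0.0286), to which the same limit applies as for Anln. The other 7 genes all differed from the list, with an adjusted p of 0.0367 by the same exact permutation test. The gap was 2.05 ± 0.15 for Septin2 and 1.52 ± 0.20 for Septin7. For Septin3, Septin6, Septin8, Septin9 and Septin11 it lay between 1.58 and 1.76. All 32 list genes were lower without overlap between the groups, so a gene with little change was bound to separate from the list. For the uncalled septins this test therefore adds nothing to the limma result.

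Across the cuprizone arrays Anln had the same order as the oligodendrocyte list. Relative to the control mean, Anln stood at -2.27, -1.41, -1.65 and -1.88 on replicates 1 to 4, and the list mean stood at -2.03, -1.44, -1.59 and -1.80. Replicate 1 was lowest and replicate 2 highest on both. This order was not particular to the mature oligodendrocyte list. The progenitor and precursor list mean (-0.30, -0.09, -0.10 and -0.16) and the astrocyte list mean (-0.13, 0.16, 0.01 and -0.04) had it too. Septin4 stood at -1.58, -1.36, -1.21 and -1.55, with replicate 1 lowest and replicate 3 highest. The neuron list mean had the same order as Septin4 (-0.09, -0.01, 0.03 and -0.05).

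Septin2 stood at 0.29, 0.24, 0.41 and 0.40 above its control mean on these arrays. Microglial markers were higher on the same arrays, with 11 of 14 measured genes higher and none lower in limma (12 at an unadjusted p under 0.05, 6 by an ordinary F test) and a list mean of 0.45, 0.49, 0.84 and 0.61. Examples were the adaptor gene Tyrobp (0.94), the complement gene C1qb (1.14) and the growth factor receptor gene Csf1r (0.61). Of 12 astrocyte markers 4 were higher and 3 lower in limma (9 at an unadjusted p under 0.05, 4 by an ordinary F test). Among the higher were the filament gene Gfap (0.96) and the transcription factor gene Sox9 (0.43). Among the lower was the glutamate transporter gene Slc1a2 (-0.60). The astrocyte list mean ran from -0.13 to 0.16 with cuprizone. The part of these cell types in the rise of Septin2 was not tested, nor was that of the oligodendrocytes in the fall of Anln and Septin4.

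**Figure D3:**
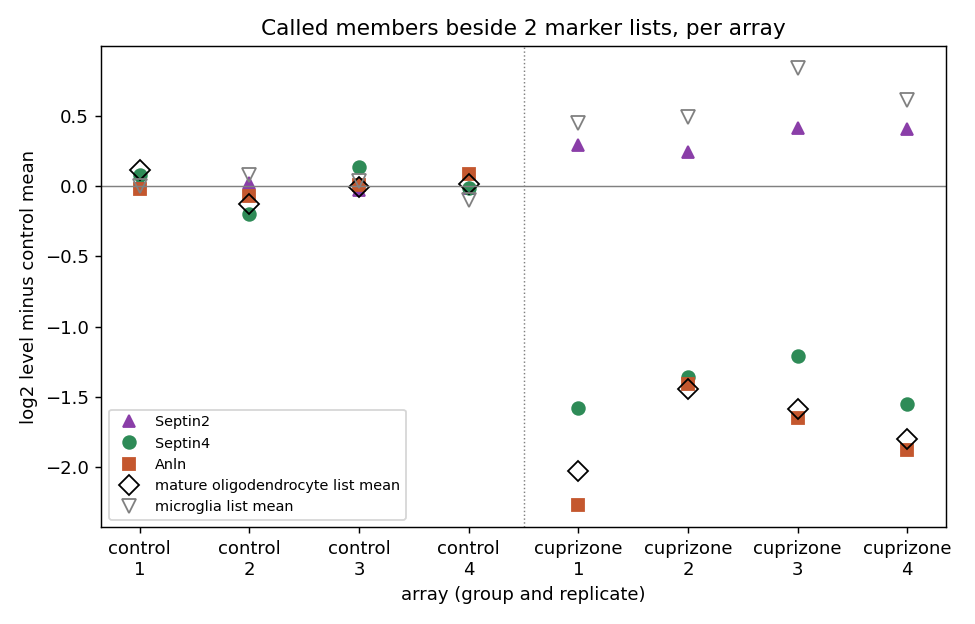
Log2 level minus the control mean on each of the 8 arrays for Septin2, Septin4 and Anln (filled symbols) and for the means of the mature oligodendrocyte and microglia lists (open symbols). Anln lies at -2.27 to -1.41 on the cuprizone arrays, next to the oligodendrocyte list at -2.03 to -1.44, while Septin2 lies at 0.24 to 0.41 and the microglia list at 0.45 to 0.84.

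Markers of progenitors and young oligodendrocytes were set beside these genes. Of 16 measured genes 3 were lower and none higher in limma (7 at an unadjusted p under 0.05, 2 by an ordinary F test). The list had a median log2 fold change of -0.10 and a mean of -0.30 to -0.09 on the cuprizone arrays. The 3 lower genes were Enpp6 (-0.75) and Bcas1 (-0.76), which mark young oligodendrocytes, and the lineage factor gene Olig1 (-0.50). None of 11 vessel markers was called in limma (4 at an unadjusted p under 0.05, 0 by an ordinary F test), and the one with the smallest p was the receptor gene Kdr at -0.24. None of 8 choroid plexus and ependymal markers was called either (2 and 0 by the same counts), Foxj1 at 0.21 having the smallest p, but their list mean varied widely within each diet. It stood at -0.33, 0.31, -0.60 and 0.61 on control replicates 1 to 4 and at -0.57, 0.33, -0.54 and 0.18 on cuprizone replicates 1 to 4, higher on replicates 2 and 4 of both diets. In the neuron list the smallest p was that of Syn2 at -0.20.

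Anillin and septins act with partner proteins, among them myosin II and the Borg proteins. Of 26 measured genes of these partners 6 were lower and 3 higher in limma (13 at an unadjusted p under 0.05), and the median log2 fold change was -0.0018. Cdc42ep2 (transcript cluster 10465278), which encodes a Borg protein that links the GTPase CDC42 to septins, fell from 8.82 ± 0.11 to 7.98 ± 0.09 (-0.84 ± 0.07, limma adjusted p = 3.50e-05). Rtkn2 (cluster 10363743), a relative of the septin-binding protein rhotekin, fell from 6.67 ± 0.10 to 5.85 ± 0.09 (-0.82 ± 0.07, limma adjusted p = 4.06e-05). Both fell by less than Septin4.

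The GTPase gene Rhob fell by 0.37 ± 0.08 (limma adjusted p = 0.0153), while its relative Rhoc rose by 0.49 ± 0.07 (limma adjusted p = 0.000876). Of the genes of myosin II, which Septin2 and anillin bind, the heavy chain gene Myh9 rose by 0.32 ± 0.05 and the light chain gene Myl12a by 0.32 ± 0.07. Another heavy chain gene, Myh14, fell, and the remaining myosin II genes of the list were not called. The other 3 lower partners, named after their values were seen, were the myosin heavy chain gene Myh14 (-0.29), Ect2 (-0.30) and the Borg gene Cdc42ep1 (-0.26), with limma adjusted p of 0.0230 to 0.0498. The number of lower partners was 3 without control replicate 1, control replicate 4, cuprizone replicate 1 or cuprizone replicate 4, and 2 by an ordinary F test. Against a null of a 1.2-fold change (limma treat) 2 partners were lower and 0 higher.

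Because anillin is also a gene of dividing cells, 21 measured genes of mitosis and cytokinesis were set beside it. In limma 3 were lower and none higher (7 at an unadjusted p under 0.05, 1 by an ordinary F test), with a median of -0.14. The DNA topoisomerase gene Top2a fell by 0.53 ± 0.08, the cyclin gene Ccna2 by 0.41 ± 0.09 and Ect2, which encodes the activator of RhoA in cytokinesis, by 0.30 ± 0.07. Top2a had the largest fall among them, against 1.80 for Anln. Control means were 6.35 for Top2a, 7.00 for Ccna2 and 6.12 for Ect2, against 9.07 for Anln. Without detection calls it is not known how near background these genes lie, and a low level limits how far a gene can fall. Without control replicate 3, 5 of the 21 were lower.

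**Figure D4:**
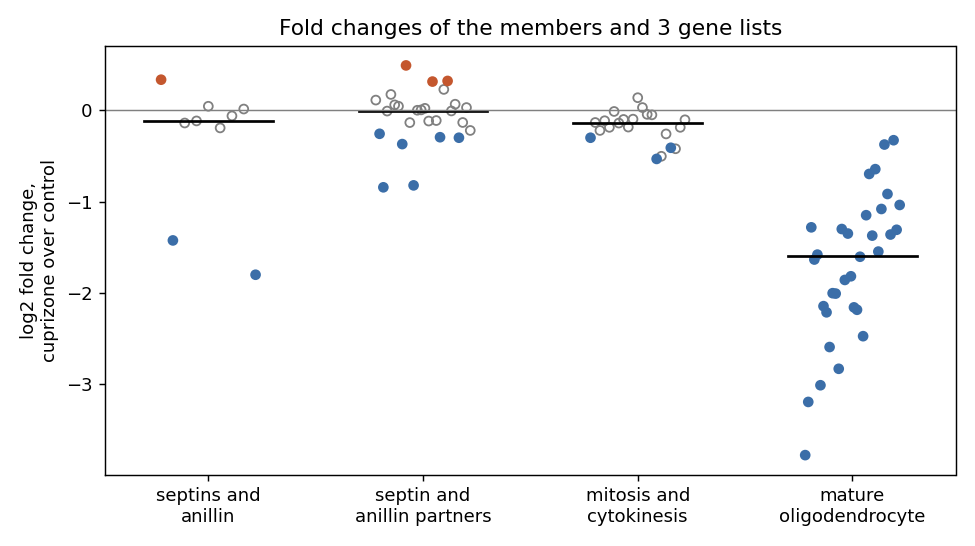
Log2 fold change (cuprizone over control) of each measured gene in 4 sets, with called genes filled (blue lower, orange higher), uncalled genes open, and a black line at the median. The 21 mitosis genes reach down to -0.53 and the 26 partners to -0.84. Anln at -1.80 and Septin4 at -1.43 lie within the range of the 32 mature oligodendrocyte genes. The called mitosis genes had lower control levels than Anln.

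The genes whose pattern over the 8 arrays was most like that of the called genes were sought among 17022 genes by Pearson's r. These r values mostly restate the difference between diets, which both genes of a pair share. Anln was closest to Trp53inp2, a regulator of autophagy (r = 0.997), the cholinesterase gene Bche (0.997) and Mbp (0.997), which fell by 0.64, 0.84 and 1.28. Over deviations from the group means these pairs still had r of 0.948, 0.962 and 0.942. Septin4 was closest to the deubiquitinase gene Josd2 (0.996), the ubiquitin ligase gene Trim13 (0.996) and Ugt8a, the galactosyltransferase gene of myelin lipids (0.996), with 0.919, 0.893 and 0.872 over deviations. Septin2 was closest to Dglucy, a glutamate-metabolism gene (0.991), the GTPase gene Rras (0.991) and the splicing regulator gene Ptbp1 (0.990), with 0.916, 0.932 and 0.932 over deviations. The deviations come from the same 8 arrays, share their normalization and were ranked out of many genes.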

How the data were processed

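The deposited values are log2 levels per transcript cluster, and per the submitters' processing notes RMA, Expression Console and Transcriptome Analysis Console were used; versions, roles and genome build are not given in the sources used here. RMA as published fits arrays to a common distribution, so a shift shared by most genes cannot be seen. Detection calls and scan batches were not used here, and the number of arrays limits the precision.

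The platform annotation gave 21789 clusters exactly 1 symbol, and 1621 clusters several. The 23410 with a symbol were fitted with limma 3.58.1 (R 4.3.3), with 2 groups, no covariate, default moderation, two-sided, and Benjamini-Hochberg adjustment over all of them, at a threshold of 0.05. Errors after log2 fold changes are SEs of that fit, and of within-array differences SEs from the group SDs.

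Differences between genes used exact permutation of the arrays. Steps were tested on simulated data. Genes and lists were chosen with earlier results of these data known. Beside the 9 genes, the rule for names took the other septins, up to 6 called partners and up to 3 called genes of each other list (the smallest p where none was called), Mog, Mbp and 3 genes by likeness per called gene. Alternatives were the replicate block, each array left out, other priors, scalings, filters and cluster sets, array weights, a neuronal covariate and a 1.2-fold null.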

Additional observations from a re-analysis of the deposited data

Results flagged for a closer look

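Septin1 on cuprizone replicate 4 stood at 6.62, against 6.92 to 6.95 on the other 3 cuprizone arrays, a gap large for a group of 4. Of 44 groups of arrays looked at in this way 1 stood out, and chance gives about 1 in 20. Septin1 was not called in limma.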

How the results depend on the processing

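The calls of Septin4, Anln and Septin2 held in every limma alternative run, except that Septin2 was lost against a 1.2-fold null, which left 0 of the 9 genes higher. Over these alternatives the log2 fold change ran from -1.50 to -1.33 for Septin4, from -1.93 to -1.65 for Anln and from 0.31 to 0.37 for Septin2, and no further gene was called. Over all clusters the 1.2-fold null called 198 lower and 231 higher, and an ordinary F test called 632 higher, against 823 and 1102. With the 1.2-fold null 4 microglial markers were higher and 0 genes of mitosis and cytokinesis were lower, in place of 11 and 3. Septin9, never called, turned sign without control replicate 1, control replicate 2 or cuprizone replicate 2 (-0.0012, -0.00019 and -0.018, in a range up to 0.041 with 1 array left out), and when arrays were centred on their medians (-0.0059). Anln against the mature oligodendrocyte level turned to 0.40 with the list's median level in place of its mean. The median was taken over the levels on each array, and the gene at the median can differ between arrays. That value therefore does not compare Anln with a typical fold change of the list.

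Leaving out 1 array gave 8 to 9 of the 10 pairs and 7 to 8 of the 9 comparisons with the oligodendrocyte mean, where 8 and 7 were called. Deviations of same-numbered arrays correlated at -0.19 to 0.21 over all clusters, with 1 of 4 numbers above 0.1, so the numbers were not taken to pair the samples, although the choroid plexus and ependyma list was higher on replicates 2 and 4 of both diets. With the replicate number as a block, limma called 3 of the 9 genes, and 636 clusters lower and 892 higher. The exact sign-flip test over 4 pairs cannot go below 0.125, so with that block 0 of the pairs and 0 of the comparisons with the oligodendrocyte mean passed. The alternative of a second cluster per gene gave no value, since each gene had 1.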
